A study of Homo sapiens with 26 samples.

Results

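The MYC and MAX network is a set of transcription factors that share MAX, or the related protein MLX, as a dimer partner and read the same DNA element, the E-box CACGTG. MYC and MYCN bind it with MAX and raise genes of cell growth, ribosome making and the cell cycle. The MXD proteins (MXD1, MXI1, MXD3 and MXD4) and MNT also pair with MAX, bring SIN3 and histone deacetylases to the same sites and lower transcription there. MLX pairs with MXD1, MXD4 and MNT and with the nutrient sensors MLXIP (MondoA) and MLXIPL (ChREBP). In estrogen receptor-positive breast cancer cells MYC is an estrogen target and is among the genes that drive entry into the cell cycle. The 9 genes named here, MYC, MYCN, MAX, MXD1, MXI1, MXD3, MXD4, MNT and MLX, were taken by symbol from the 30331 named genes of the table, and all 9 were found. MYCN was below the filter on low values, so 8 of the 9 were tested for change.

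Bulk RNA sequencing was done on subcutaneous ZR751 tumors in female NSG mice, a strain without T, B and NK cells. ZR751 is a human breast cancer cell line, hormone receptor-positive and HER2-negative, and all 3 groups come from this 1 line. Resistant tumors (5 mice) came from a separate study in which atirmociclib was given for 84 to 91 days. Sensitive tumors (3 mice) had 3 days of atirmociclib, and vehicle tumors (5 mice) had 3 days of vehicle, which the treatment label calls DMSO. Atirmociclib (PF-07220060) inhibits CDK4, the kinase that opens the cell cycle, and was dosed orally at 60 mg/kg 2 times a day, 7 h apart. Tumors averaged 150 mm3 at the start and the 3-day tumors were taken 3 h after the last dose. No vehicle mice of the separate study are among these samples, so for resistant tumors the length of treatment, the study and resistance itself cannot be told apart.

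Each mouse gave 2 libraries, A and B, 26 in all, and the values are TPM, each gene's length-corrected share of the library's transcripts. The depth of a library is unknown, because the values are TPM and sum to 999849.7 to 999889.5 in every library. Libraries A and B were averaged per mouse, and the mouse was the replicate. Values per mouse are listed in the order 9-3, 9-6, 9-7, 9-8 and 9-9 for resistant, 6-4, 6-5 and 6-6 for sensitive and 1-2, 1-4, 1-5, 1-6 and 1-9 for vehicle tumors. Errors of TPM are SDs over mice, with n = 5 for resistant, 3 for sensitive and 5 for vehicle tumors. All 8 luminal epithelial markers were expressed in every group, with summed TPM of 10254 to 13757 in resistant, 7389 to 9513 in sensitive and 7974 to 12245 in vehicle tumors. Basal epithelial markers, of which 2 of 4 passed 1 TPM in some mouse, summed to 1.8 to 4.2 TPM in resistant, 14.9 to 31.7 TPM in sensitive and 4.98 to 17.1 TPM in vehicle tumors. All 3 endothelial markers and 5 of 6 fibroblast markers stayed below 1 TPM in every mouse. Log2 changes are on the log2(TPM + 1) scale relative to the median change of all 14079 genes tested (-0.07 in sensitive versus vehicle tumors, -0.05 in resistant versus sensitive tumors and -0.14 in resistant versus vehicle tumors), with SEs and adjusted p of the change as fitted by limma before the median was taken off. Calls were made at an adjusted p below 0.05. In a bulk tumor, fewer cells that express a gene and less RNA per cell cannot be told apart.

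Among the 8 tested members, MYC rose and MXD3 fell after 3 days of drug, and in resistant tumors MXD1 was high while MXD3 lay between its sensitive and vehicle levels. In sensitive versus vehicle tumors 1 of 8 members was called higher, where 3.16% of all genes were, and 1 was called lower, where 12.6% of all genes were. In resistant versus sensitive tumors 2 of 8 were called higher, against 9.56% of all genes, and 0 lower by limma, against 11.6%; at an unadjusted p under 0.05, 2 were lower (MXD4 and MXI1). In resistant versus vehicle tumors 1 of 8 was called higher, against 11.5% of all genes, and 3 lower, against 32.5%. The 3 in 8 that were lower in resistant versus vehicle tumors are thus near the share of all genes. The median change of the 8 members was 0.19, -0.08 and 0.03 in sensitive versus vehicle, resistant versus sensitive and resistant versus vehicle tumors, beside a median of 0 over all genes on this scale. Each pair of comparisons shares a group of mice, so the 3 are not independent of each other.

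**Figure D1:**
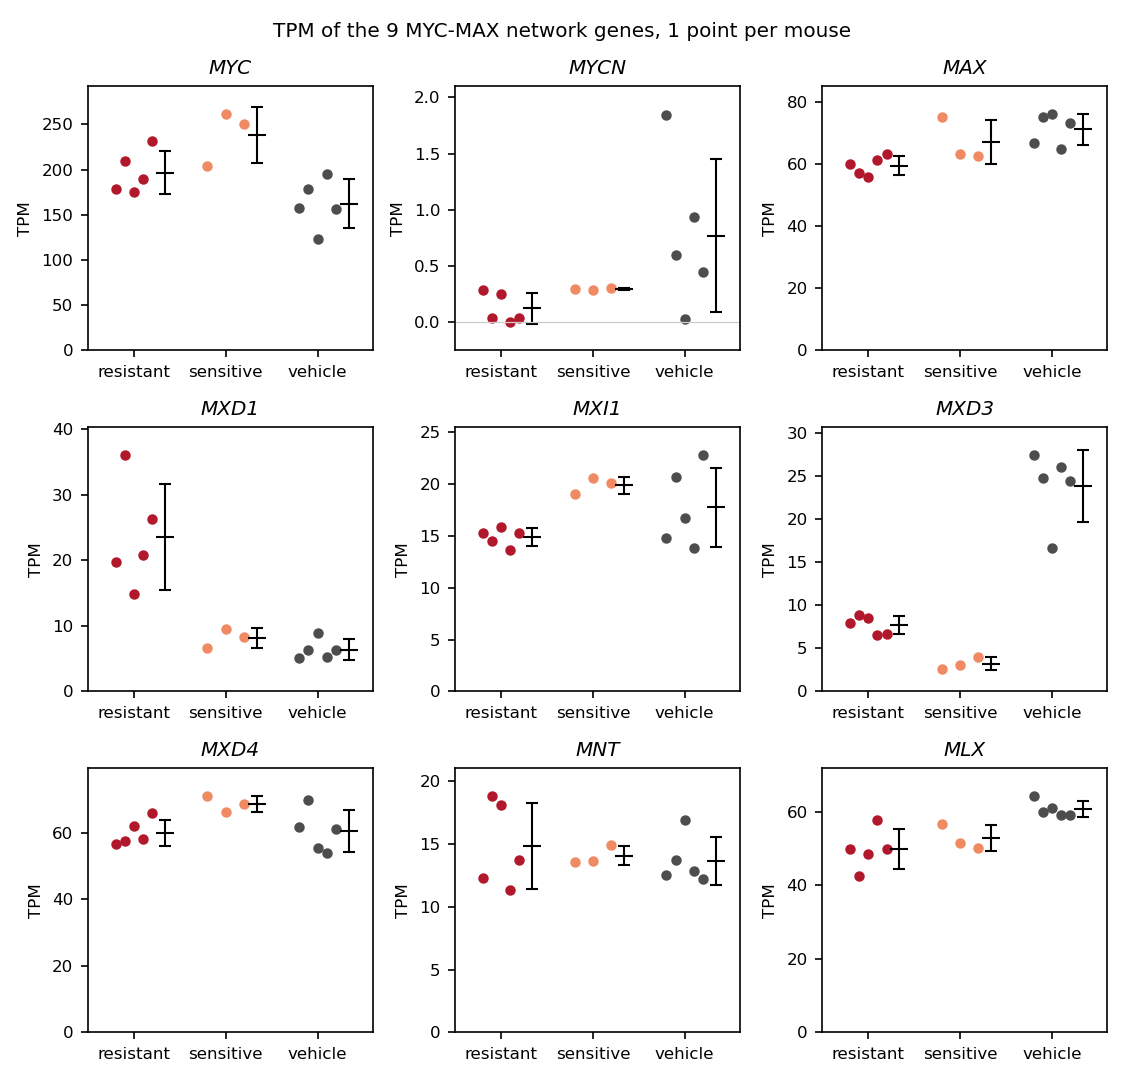
TPM of the 9 members in each mouse (points), with the mean and SD of each group (bars), for resistant, sensitive and vehicle tumors; the vertical axes differ between genes. MXD1 lay between 14.8 and 36.0 TPM in resistant tumors and under 10 TPM in all others, and MXD3 stayed at or under 8.88 TPM in every drug-treated mouse.

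MYC was the most abundant member in all 13 mice. From chromosome 8, 127735434 to 127741434 (GRCh38, plus strand), it gave 178, 209, 175, 189 and 232 TPM in resistant tumors, 203, 261 and 251 TPM in sensitive tumors, and 157, 178, 123, 196 and 156 TPM in vehicle tumors. All 3 sensitive mice lay above all 5 vehicle mice, and the resistant mice overlapped both other groups. The means were 197 ± 24.0 TPM in resistant, 238 ± 30.7 TPM in sensitive and 162 ± 27.1 TPM in vehicle tumors. MYC rose by 0.63 ± 0.14 in sensitive versus vehicle tumors (limma, adjusted p = 0.0142), a 1.47-fold difference of the means. Leaving out sensitive mouse 6-5 ended that call (adjusted p = 0.0910), as did leaving out sensitive mouse 6-6 (adjusted p = 0.0717). Resistant tumors did not differ from sensitive tumors past the threshold (-0.23 ± 0.14, adjusted p = 0.167) nor from vehicle tumors (0.42 ± 0.12, adjusted p = 0.0659). The resistant versus vehicle difference was called without mouse 1-6, the vehicle mouse with the most MYC (adjusted p = 0.0247), when scaled by median of ratios (0.0241), and in the fits of all 26 libraries (0.0125 with mouse as a random effect). The resistant versus sensitive difference was called with array weights (adjusted p = 0.0185). The A and B libraries of a mouse differed in MYC by a median of 0.06 and at most 0.14 on the log2 scale, less than the range over the mice of a group, which was 0.41 in resistant, 0.36 in sensitive and 0.66 in vehicle tumors.

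MYCN, the relative of MYC best known from neural tumors, was barely present. This gene (chromosome 2, 15940564 to 15947007, plus strand) had 0.290, 0.0400, 0.250, 0 and 0.0350 TPM in resistant tumors, 0.295, 0.285 and 0.305 TPM in sensitive tumors, and 1.845, 0.595, 0.0300, 0.935 and 0.45 TPM in vehicle tumors. One vehicle mouse, 1-2, passed 1 TPM, and the groups overlapped. With no filter on low values, and 21362 genes tested, its change was -0.55 ± 0.21 in resistant versus vehicle tumors (adjusted p = 0.0496), -0.20 in resistant versus sensitive tumors (adjusted p = 0.624) and -0.35 in sensitive versus vehicle tumors (adjusted p = 0.390). MYCNOS, an antisense gene that covers 3.77% of its exon bases, was at 0 in resistant and sensitive tumors and averaged 0.043 TPM in vehicle tumors. MYCL, the remaining MYC gene, was also below the filter.

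MAX, the partner that MYC, the MXD proteins and MNT all need, varied little. Encoded on chromosome 14, 65006174 to 65102695 (minus strand), MAX had 59.8, 56.9, 55.8, 61.2 and 63.2 TPM in resistant tumors, 75.1, 63.0 and 62.6 TPM in sensitive tumors, and 66.6, 75.0, 75.9, 64.8 and 73.0 TPM in vehicle tumors. All 5 resistant mice lay below all 5 vehicle mice, while the sensitive mice spanned both groups. The change was -0.12 ± 0.07 in resistant versus vehicle tumors (adjusted p = 0.00936), which was called, but not with median-of-ratios scaling or quantile normalization (adjusted p up to 0.160). It was -0.12 ± 0.08 in resistant versus sensitive tumors (adjusted p = 0.156) and -0.02 ± 0.08 in sensitive versus vehicle tumors (adjusted p = 0.487). There were 3.31 ± 0.337 MYC transcripts per MAX transcript in resistant tumors, 3.62 ± 0.792 in sensitive tumors and 2.31 ± 0.502 in vehicle tumors, as a ratio of TPM.

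MXD1, known as an antagonist of MYC that is turned on as cells stop dividing and differentiate, set the resistant tumors apart. Located on chromosome 2, 69897688 to 69942945 (plus strand), MXD1 had 19.7, 36.0, 14.8, 20.9 and 26.3 TPM in resistant tumors, 6.66, 9.58 and 8.23 TPM in sensitive tumors, and 5.05, 6.31, 8.96, 5.21 and 6.38 TPM in vehicle tumors. Every resistant mouse lay above every other mouse, and the sensitive and vehicle mice overlapped. The means were 23.5 ± 8.07, 8.15 ± 1.46 and 6.38 ± 1.57 TPM in resistant, sensitive and vehicle tumors. MXD1 was higher by 1.42 ± 0.23 in resistant versus sensitive tumors (adjusted p = 0.00174), 2.89-fold by the means. In resistant versus vehicle tumors it was higher by 1.83 ± 0.20 (adjusted p = 3.12e-05), 3.69-fold by the means. Sensitive versus vehicle tumors gave 0.40 ± 0.23 (adjusted p = 0.371). Both calls held in all 26 alternatives tried, leaving out each mouse included. MXD1 was also the most variable tested member among resistant mice, with an SD of 0.46 on the log2 scale and a range of 1.23 between mouse 9-7 and mouse 9-6.

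Of 4 leukocyte markers, 3 were tested and 2 were called higher in the same comparisons as MXD1. The shares of all genes called higher were 9.56% in resistant versus sensitive and 11.5% in resistant versus vehicle tumors. The 4 leukocyte markers summed to 6.69 to 15.7 TPM in resistant, 4.28 to 7.38 TPM in sensitive and 2.98 to 6.25 TPM in vehicle tumors. Of these, CD68 was higher by 1.03 in resistant versus sensitive tumors (adjusted p = 0.0240) and LYZ by 1.10 (adjusted p = 0.00602), and in resistant versus vehicle tumors the 2 were higher by 1.53 (adjusted p = 5.14e-04) and 1.43 (adjusted p = 1.97e-04). CD14 averaged 1.13 ± 0.292 TPM in resistant, 1.45 ± 0.138 TPM in sensitive and 1.32 ± 0.390 TPM in vehicle tumors and was not called in any comparison. PTPRC, the gene of the leukocyte surface protein CD45, was at 0 in all resistant and sensitive mice and reached at most 0.015 TPM in vehicle mice. The CD68 call in resistant versus sensitive tumors ended without mouse 6-4, 6-5 or 9-6 (adjusted p up to 0.135). The part of these markers in the MXD1 result was not tested. SNRNP27, which covers 3.73% of the exon bases of MXD1, was not called in any comparison, with changes of 0.12 in resistant versus sensitive, -0.06 in resistant versus vehicle and -0.19 in sensitive versus vehicle tumors.

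MXD3 is the member of the family known from mouse cells to be made in S phase of dividing cells, unlike MXD1. On chromosome 5, 177301461 to 177312757 (minus strand), it had 8.00, 8.88, 8.52, 6.54 and 6.63 TPM in resistant tumors, 2.56, 3.03 and 4.06 TPM in sensitive tumors, and 27.5, 24.8, 16.7, 26.1 and 24.5 TPM in vehicle tumors. The 3 groups did not overlap, with sensitive mice lowest, resistant mice between and vehicle mice highest. The means were 7.71 ± 1.08 TPM in resistant, 3.21 ± 0.765 TPM in sensitive and 23.9 ± 4.22 TPM in vehicle tumors. MXD3 fell by 2.49 ± 0.16 in sensitive versus vehicle tumors (adjusted p = 1.15e-07). It was higher by 1.10 ± 0.16 in resistant versus sensitive tumors (adjusted p = 9.80e-04), a 2.40-fold difference of the means, and changed by -1.37 ± 0.14 in resistant versus vehicle tumors (adjusted p = 4.58e-06). The 3 calls held in all 26 alternatives. MXD3 shares exon bases with RAB24 on the same strand (18.0%) and with PRELID1 on the opposite strand (22.5%), and no source states whether the counting used strand. RAB24 was not called in any comparison and PRELID1 changed by 0.24 in resistant versus sensitive (adjusted p = 0.0536), 0.08 in resistant versus vehicle (adjusted p = 0.448) and -0.17 in sensitive versus vehicle tumors (adjusted p = 0.0223). The PRELID1 call in the last of these ended without mouse 6-5 or 6-6 (adjusted p up to 0.127) and under both other scalings (adjusted p up to 0.409).

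The mean of MXD3 was lowest in sensitive, between in resistant and highest in vehicle tumors, and most proliferation genes had this order. The 2 exceptions among 12 were E2F1 (56.6, 18.3 and 53.0 TPM in resistant, sensitive and vehicle tumors) and MCM3 (45.1, 23.0 and 44.1 TPM). MKI67, the gene of the proliferation marker Ki-67, averaged 6.24 ± 2.97 TPM in resistant, 1.36 ± 0.550 TPM in sensitive and 45.8 ± 8.07 TPM in vehicle tumors. All 12 proliferation genes were called lower in sensitive versus vehicle tumors, with a median change of -2.46. This count was 8 to 12 when a mouse was left out, where 12.6% of all genes were lower in the main fit. In resistant versus sensitive tumors 11 of 12 were higher (median 1.08), or 7 of 12 without mouse 6-5, against 9.56% of all genes. In resistant versus vehicle tumors 7 of 12 were lower (median -0.88), against 32.5% of all genes, and 5 were not called. Within resistant tumors, the 2 mice with the least MKI67, 9-8 (2.36 TPM) and 9-9 (3.79 TPM), were also the 2 with the least MXD3. Within vehicle tumors, mouse 1-5 was lowest and mouse 1-2 highest for both genes, and within sensitive tumors mouse 6-6 was highest for both. The order was not the same throughout: the resistant mouse with the most was 9-6 for MXD3 and 9-7 for MKI67, and the sensitive mouse with the least was 6-4 for MXD3 and 6-5 for MKI67. No correlation is given for this pair, because the 3 groups form separate clusters.

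**Figure D2:**
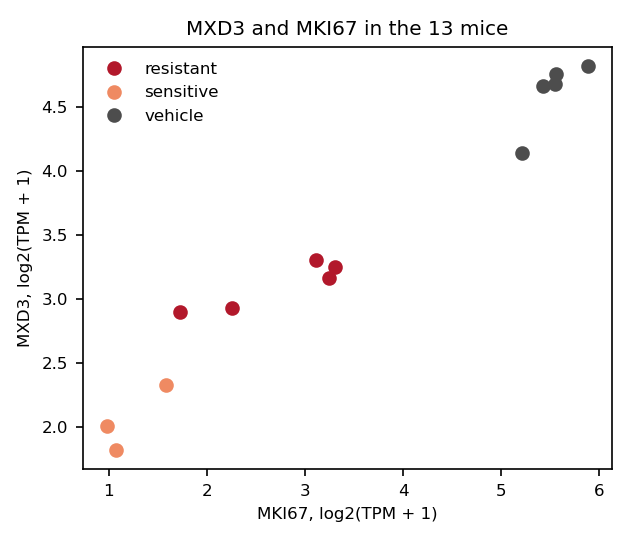
MXD3 against MKI67, both as log2(TPM + 1), 1 point per mouse, coloured by group. The 3 groups sit apart along one rising band, with resistant mice from 2.36 to 8.91 TPM of MKI67 lying between the sensitive mice, at most 1.99 TPM, and the vehicle mice, at least 36.2 TPM.

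The promoter windows of MXD1 and MXD3 are shown because these members moved most and in different directions in resistant versus vehicle tumors. The RefSeq (GRCh38.p14) windows of 8 of the 9 members, 11 in all, were used, and MYC was left out. Both strands were searched for the E-box CACGTG, for E2F elements as TTTCCCGC, TTTGGCGC, TTTCGCGC and TTTGCCGC, for CCAAT and for the GC box GGGCGG. Capitals mark CCAAT and GC box matches on either strand (ATTGG is CCAAT on the other strand). The MXD1 window lies at chr2:69914859-69915158 (plus strand) and the MXD3 window at chr5:177312703-177313002 (minus strand).
MXD1: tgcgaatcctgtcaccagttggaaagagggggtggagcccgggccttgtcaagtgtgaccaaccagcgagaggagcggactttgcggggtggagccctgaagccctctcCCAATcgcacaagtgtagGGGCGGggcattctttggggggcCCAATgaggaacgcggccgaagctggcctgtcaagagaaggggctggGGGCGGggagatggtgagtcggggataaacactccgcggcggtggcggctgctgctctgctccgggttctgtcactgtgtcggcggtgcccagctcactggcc
MXD3: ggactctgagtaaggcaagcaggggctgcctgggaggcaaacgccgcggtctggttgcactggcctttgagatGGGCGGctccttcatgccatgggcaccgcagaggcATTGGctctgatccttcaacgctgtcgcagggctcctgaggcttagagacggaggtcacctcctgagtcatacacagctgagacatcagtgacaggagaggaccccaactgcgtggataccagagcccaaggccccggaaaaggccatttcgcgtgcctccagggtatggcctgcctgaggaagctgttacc
The MXD1 window held 2 CCAAT and 2 GC box matches at 65.0% GC, and the MXD3 window 1 of each at 60.7% GC. Of all windows, 34.6% held a CCAAT and 45.0% a GC box. Neither window held CACGTG, nor an E2F match as spelled above.

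MXD4 was the most abundant MXD gene in every group. The gene lies on chromosome 4, 2247432 to 2262294 (minus strand), and had 56.5, 57.6, 61.9, 58.0 and 65.9 TPM in resistant tumors, 70.9, 66.3 and 68.8 TPM in sensitive tumors, and 61.6, 69.9, 55.5, 54.0 and 61.2 TPM in vehicle tumors. The sensitive mice lay above all resistant mice by a narrow margin, but overlapped the vehicle mice. Its change was 0.26 ± 0.08 in sensitive versus vehicle (adjusted p = 0.147), -0.15 ± 0.08 in resistant versus sensitive (adjusted p = 0.117) and 0.13 ± 0.07 in resistant versus vehicle tumors (adjusted p = 0.956). The first of these was called under both other scalings (adjusted p as low as 0.0234). The adjusted p of 0.956 belongs to the change as fitted by limma, -0.0056, before the median was taken off.

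MXI1 (also called MXD2) is a MYC antagonist that hypoxia is known to raise. It lies on chromosome 10, 110207605 to 110287365 (plus strand), and had 15.3, 14.5, 15.8, 13.6 and 15.3 TPM in resistant tumors, 19.0, 20.6 and 20.1 TPM in sensitive tumors, and 14.8, 20.6, 16.8, 13.8 and 22.8 TPM in vehicle tumors. The resistant and sensitive mice were each tightly grouped and did not overlap, and the vehicle mice spread over both. The difference of -0.35 ± 0.14 in resistant versus sensitive tumors just missed the threshold (adjusted p = 0.0513) and was called in 9 of 26 alternatives, leaving out mouse 1-2, 1-6 or 1-9 among them (adjusted p as low as 0.0282). The change was 0.25 ± 0.14 in sensitive versus vehicle (adjusted p = 0.391) and -0.08 ± 0.12 in resistant versus vehicle tumors (adjusted p = 0.149, or 0.0416 without mouse 1-6). The hypoxia response genes had a median change of 0.67 in sensitive versus vehicle tumors, with 3 of 9 called higher. In resistant versus sensitive tumors the median was -0.64, with 4 lower and 1 higher. It was 0.14 in resistant versus vehicle tumors, with 3 lower and 1 higher. Of all genes, 3.16% were higher in the first comparison, 11.6% lower and 9.56% higher in the second, and 32.5% lower and 11.5% higher in the last. In the first of these, 0 of 9 were called without mouse 6-5 or 6-6, 1 without mouse 1-2, 1-4, 1-6 or 9-3, and 6 without mouse 6-4. In the last, 0 or 1 were lower and 2 higher under the other scalings, and 2 were higher without mouse 6-4, 6-6 or 9-9. SLC2A1, the glucose transporter GLUT1, was the 1 called higher in resistant tumors, at 109 ± 11.7 TPM against 60.7 ± 8.65 TPM in sensitive tumors (0.89, adjusted p = 6.11e-04).

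MNT, the most widely expressed MAX-bound repressor, was not called in any comparison. The gene lies on chromosome 17, 2384060 to 2401118 (minus strand), and had 12.3, 18.8, 18.1, 11.3 and 13.7 TPM in resistant tumors, 13.6, 13.6 and 14.9 TPM in sensitive tumors, and 12.5, 13.7, 16.9, 12.9 and 12.2 TPM in vehicle tumors. All 3 groups overlapped. Its change was 0.10 ± 0.15 in resistant versus sensitive (adjusted p = 0.848), 0.23 ± 0.13 in resistant versus vehicle (adjusted p = 0.581) and 0.12 ± 0.15 in sensitive versus vehicle tumors (adjusted p = 0.872).

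MLX, the partner of the glucose-sensing Mondo proteins, was lower in resistant than in vehicle tumors. The gene lies on chromosome 17, 42567068 to 42573239 (plus strand), and had 49.8, 42.5, 48.6, 57.8 and 49.95 TPM in resistant tumors, 56.7, 51.4 and 50.025 TPM in sensitive tumors, and 64.1, 59.8, 61.1, 59.1 and 59.1 TPM in vehicle tumors. Every drug-treated mouse lay below every vehicle mouse. The change was -0.15 ± 0.07 in resistant versus vehicle tumors (adjusted p = 0.00660), which was called, but not under the other scalings (adjusted p up to 0.137). It was -0.04 ± 0.09 in resistant versus sensitive (adjusted p = 0.491) and -0.13 ± 0.09 in sensitive versus vehicle tumors (adjusted p = 0.126). PSMC3IP overlaps 18.1% of the exon bases of MLX on the opposite strand. It averaged 7.40 TPM in resistant, 5.87 TPM in sensitive and 11.9 TPM in vehicle tumors and was called lower in resistant versus vehicle (-0.48, adjusted p = 8.95e-04) and sensitive versus vehicle tumors (-0.81, adjusted p = 4.54e-04). The part of this overlap in the MLX result was not tested.

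The promoter windows of MXD4, MNT and MLX each held an E-box, the element that the network's own dimers read, which is why they are shown. The E-box CACGTG is its own reverse complement, and 7.26% of all windows held it. The element lies 238 bases before the start of MXD4 (chr4:2262330-2262359, minus strand), 193 before that of MNT (chr17:2401236-2401265, minus strand) and 50 before that of MLX (chr17:42567038-42567067, plus strand), in capitals below.
MXD4: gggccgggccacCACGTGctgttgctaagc
MNT: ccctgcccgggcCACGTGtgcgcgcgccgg
MLX: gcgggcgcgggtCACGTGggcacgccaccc
The windows of MYCN, MAX, MXD1, MXI1 and MXD3 held none. Of the 11 windows, the MYCN window is the 1 that held E2F elements, shown because E2F factors act downstream of CDK4, and 3.31% of all 35116 promoter windows held at least 1. Its 2 matches overlap, and the first, in capitals, lies 176 bases before the start (chr2:15940363-15940392, plus strand).
MYCN: agcaagtggctTTTGGCGCgaaagccttgg
A match is a description of the letters and not of binding, and the window of MYC is not shown. Of the 3 members with an E-box, MLX was called lower in resistant versus vehicle tumors, as given above, and MXD4 was called in sensitive versus vehicle tumors under the other scalings alone; MNT was not called in any of the 3 comparisons.

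**Figure D3:**
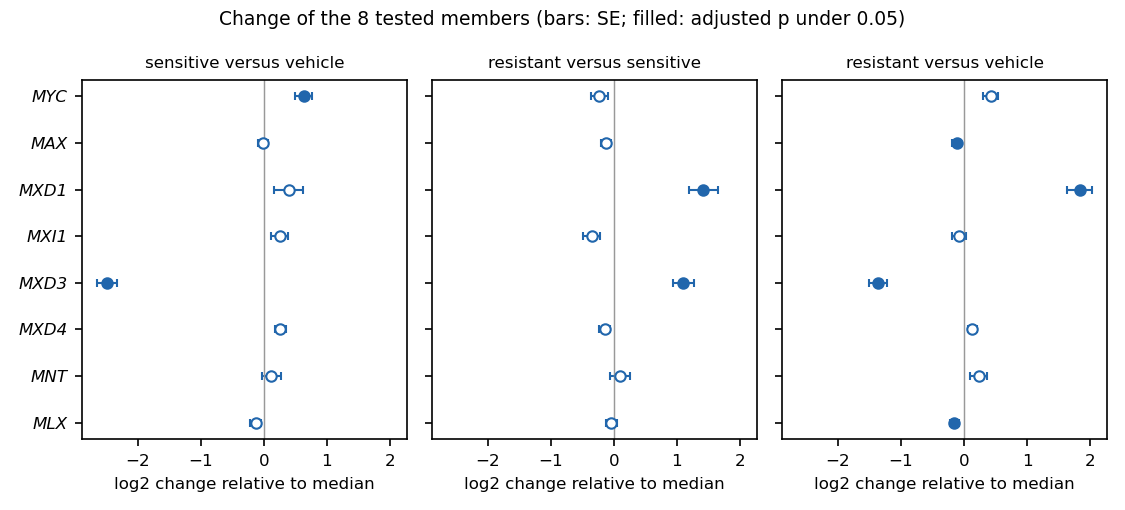
Log2 change of the 8 tested members relative to the median of all genes in the 3 comparisons, with SEs as bars; filled points passed an adjusted p of 0.05. MXD3 was at -2.49, 1.10 and -1.37 in sensitive versus vehicle, resistant versus sensitive and resistant versus vehicle tumors, and MXD1 at 0.40, 1.42 and 1.83, while MAX, MXI1, MXD4, MNT and MLX lay between -0.35 and 0.26.

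Because TPM is corrected for length, the members can be ordered by level. Members also share exon bases with other genes, as given for MXD3 and MLX, and MNT shares 12.2% of its own with an antisense gene. The part of this sharing in the order was not tested. In resistant tumors the order was MYC, MXD4, MAX, MLX, MXD1, MXI1, MNT, MXD3 and MYCN. MXD4, MAX and MLX overlapped with their neighbours there, as did MXD1, MXI1 and MNT. In sensitive tumors it was MYC, MXD4, MAX, MLX, MXI1, MNT, MXD1, MXD3 and MYCN, where among neighbours only MXD4 and MAX overlapped. In vehicle tumors it was MYC, MAX, MLX, MXD4, MXD3, MXI1, MNT, MXD1 and MYCN, and the overlapping neighbours were MLX with MXD4, MXD3 with MXI1 and MXI1 with MNT. MXD1 thus held place 5 by mean in resistant and place 8 in vehicle tumors, and MXD3 held place 8 in resistant and place 5 in vehicle tumors.

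The summed transcripts of the MAX-bound antagonists overlapped between the groups, while their makeup differed. MXD1, MXI1, MXD3, MXD4 and MNT together had 121 ± 10.8 TPM in resistant, 114 ± 1.82 TPM in sensitive and 122 ± 9.46 TPM in vehicle tumors, ranges that overlapped. MXD1 was 21.9 ± 5.86% of the 4 MXD transcripts in resistant, 8.16 ± 1.46% in sensitive and 5.96 ± 1.82% in vehicle tumors. MXD3 was 7.29 ± 1.07%, 3.21 ± 0.729% and 22.1 ± 3.77% in resistant, sensitive and vehicle tumors. MXD4 was the largest share throughout, at 56.7 ± 4.50% in resistant, 68.7 ± 2.54% in sensitive and 55.7 ± 1.75% in vehicle tumors. The ratio of MXD1 to MXD3 was 1.74 to 4.05 in resistant tumors, 2.03 to 3.17 in sensitive tumors and 0.184 to 0.538 in vehicle tumors, so that every treated mouse had more MXD1 than MXD3 and every vehicle mouse less. MYC had 1.63 ± 0.140 transcripts per antagonist transcript in resistant, 2.09 ± 0.259 in sensitive and 1.33 ± 0.250 in vehicle tumors. All 3 sensitive mice (1.81 to 2.31) lay above all 5 vehicle mice (1.08 to 1.75), while the resistant mice (1.47 to 1.82) overlapped both. These sums and ratios are descriptions with no test.

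**Figure D4:**
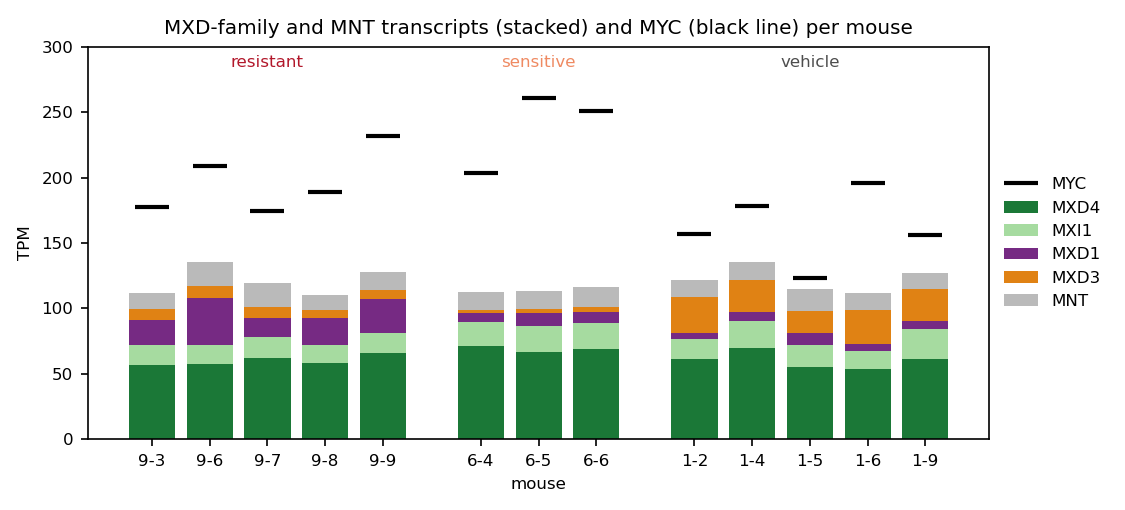
TPM of MXD4, MXI1, MXD1, MXD3 and MNT stacked for each mouse, with MYC as a black line, for resistant, sensitive and vehicle tumors. The stacks have similar heights in the 3 groups, while the MXD1 band is widest in resistant mice and the MXD3 band in vehicle mice; the MYC line lies nearest to the stack in vehicle mouse 1-5.

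Some genes had profiles close to a member over the 13 mice, measured by Pearson's r of log2(TPM + 1) among 10562 genes of at least 5 TPM on average. These r describe values that share libraries and group differences, and carry no test. For MYC the closest were RPL3, a protein of the large ribosomal subunit (r = 0.929), CGNL1, a junction protein (0.925), LOC100506548 (0.908) and SNHG5, a host gene of small nucleolar RNAs (0.908). RPL3 averaged 3533 ± 147 TPM in resistant, 4226 ± 199 TPM in sensitive and 3267 ± 315 TPM in vehicle tumors. RPL3 has near-identical pseudogene copies, and how the authors split shared reads is not stated in the sources, so its values are uncertain.

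For MXD1 the closest were AHCYL1, a regulator of IP3 receptors (r = 0.981), EVA1B (0.973), JAK2, the cytokine receptor kinase (0.966), and ZNF587, a zinc finger gene (0.964). JAK2, picked for this closeness, averaged 10.5 ± 4.09 TPM in resistant, 3.58 ± 0.698 TPM in sensitive and 2.83 ± 0.713 TPM in vehicle tumors. For MXD3 the closest were CCNB2 (cyclin B2), PLK1 (a mitotic kinase), KIF2C (a mitotic kinesin) and ARHGAP11A, all at r = 0.990. CCNB2 averaged 11.6 ± 3.46 TPM in resistant, 4.18 ± 1.42 TPM in sensitive and 54.3 ± 11.5 TPM in vehicle tumors.

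The other dimer partners of the network were called lower in resistant tumors or higher with drug. Of 3 tested, 2 were lower and 1 higher in resistant versus vehicle tumors, where 32.5% of all genes were lower and 11.5% higher. In resistant versus sensitive tumors 2 were lower, against 11.6% of all genes. In sensitive versus vehicle tumors 1 was higher, against 3.16% of all genes. MGA, a large repressor that pairs with MAX, averaged 4.55 ± 0.869 TPM in resistant, 6.77 ± 0.487 TPM in sensitive and 6.81 ± 1.23 TPM in vehicle tumors. MGA was lower in resistant versus vehicle tumors (-0.36, adjusted p = 0.00779). MLXIP averaged 11.9 ± 1.34 TPM in resistant, 17.1 ± 3.00 TPM in sensitive and 16.5 ± 2.48 TPM in vehicle tumors and was lower in resistant versus vehicle tumors (-0.31, adjusted p = 0.00790). In resistant versus sensitive tumors MLXIP (-0.45, adjusted p = 0.0208) and MGA (-0.46, adjusted p = 0.0304) were called lower, but neither was without mouse 6-4 (adjusted p = 0.120 and 0.115). The MLXIP call also ended in the fit of all 26 libraries with mouse as a random effect (adjusted p = 0.0581). The MGA call also ended without mouse 6-5, 6-6, 9-6, 9-7 or 9-8 (adjusted p up to 0.0726). MLXIPL averaged 5.02 ± 1.83 TPM in resistant, 6.34 ± 2.96 TPM in sensitive and 2.34 ± 0.833 TPM in vehicle tumors. It was called higher in resistant versus vehicle (0.97, adjusted p = 0.0215) and sensitive versus vehicle tumors (1.16, adjusted p = 0.0291). The MLXIPL calls ended without mouse 9-9 in the first comparison (adjusted p = 0.0553) and without mouse 1-2, 1-9, 6-5 or 6-6 in the second (adjusted p up to 0.164). TXNIP and ARRDC4, the best known targets of MLXIP and MLX, were called lower in resistant versus vehicle tumors (TXNIP -0.32, adjusted p = 0.0162; ARRDC4 -0.16, adjusted p = 0.0438), but 0 of the 2 were under either other scaling. The ARRDC4 call also ended without any 1 of 10 mice, all but 1-5, 6-6 and 9-8 (adjusted p up to 0.105). In resistant versus sensitive tumors ARRDC4 was called lower too (-0.44, adjusted p = 0.0189), also under both other scalings, and TXNIP was not called. That ARRDC4 call ended without mouse 6-4 or 6-5 (adjusted p up to 0.0803).

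Of 14 cofactors of MYC-MAX and MXD-MAX dimers, 9 were called lower in resistant versus vehicle tumors (median -0.12), where 32.5% of all genes were, and 0 higher by limma, also at an unadjusted p under 0.05. With either other scaling 5 were lower, where 17.3% or 19.7% of all genes were, so the count depends on scaling. In resistant versus sensitive tumors 5 were lower, where 11.6% of all genes were, and 1 higher (median -0.09), and 2 or 3 were lower without any one of the sensitive mice. The 1 called higher, RUVBL2, an ATPase of chromatin remodelers, was at 0.25, and leaving out any one of mice 6-4, 6-5, 6-6, 9-3, 9-6, 9-8 and 9-9 ended its call (adjusted p up to 0.112). In sensitive versus vehicle tumors 4 were lower (median -0.02), where 12.6% of all genes were, or 2 under either scaling. KAT2A, a histone acetyltransferase, was called higher in that comparison under both other scalings (0.33 and 0.34, adjusted p = 0.0239 and 0.0158). TFAP4, a MYC target rather than a cofactor of these dimers, is counted among the 14. It averaged 11.1 ± 0.313 TPM in resistant, 18.4 ± 0.911 TPM in sensitive and 19.0 ± 1.93 TPM in vehicle tumors. It was lower in resistant versus sensitive (-0.63, adjusted p = 3.95e-04) and resistant versus vehicle tumors (-0.58, adjusted p = 1.38e-05). SIN3A, the scaffold that MXD proteins recruit, averaged 28.7 ± 2.44 TPM in resistant, 38.4 ± 2.17 TPM in sensitive and 38.9 ± 2.58 TPM in vehicle tumors. It was lower in resistant versus sensitive (-0.37, adjusted p = 0.00502) and resistant versus vehicle tumors (-0.29, adjusted p = 4.92e-04). HDAC1, a deacetylase of the SIN3 complex, was at 102 ± 5.69 TPM in resistant, 97.3 ± 2.87 TPM in sensitive and 129.5 ± 5.67 TPM in vehicle tumors. It was lower in resistant versus vehicle (-0.21, adjusted p = 2.51e-04) and sensitive versus vehicle tumors (-0.33, adjusted p = 5.14e-04). These calls of TFAP4, SIN3A and HDAC1 held in all 26 alternatives.

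MYC protein is short-lived, and 15 genes that set its stability were followed. AURKA, the mitotic kinase that shields MYC proteins from degradation, averaged 19.5 ± 1.30 TPM in resistant, 11.6 ± 0.895 TPM in sensitive and 81.3 ± 6.24 TPM in vehicle tumors. CIP2A, an inhibitor of the phosphatase PP2A that acts on MYC, averaged 3.53 ± 1.30 TPM in resistant, 1.52 ± 0.585 TPM in sensitive and 8.15 ± 1.47 TPM in vehicle tumors. Both were lower in sensitive versus vehicle (-2.64, adjusted p = 2.27e-10, and -1.81, adjusted p = 6.60e-05) and in resistant versus vehicle tumors (-1.87, adjusted p = 2.01e-09, and -0.92, adjusted p = 9.20e-04). SKP2, a ubiquitin ligase subunit that acts on MYC, averaged 9.33 ± 1.47 TPM in resistant, 15.2 ± 1.82 TPM in sensitive and 19.6 ± 3.43 TPM in vehicle tumors. It was lower in resistant versus sensitive (-0.62, adjusted p = 0.00749) and resistant versus vehicle tumors (-0.86, adjusted p = 5.54e-05). In all, 4 of the 15 were lower and 1 higher in sensitive versus vehicle tumors, 7 lower and 1 higher in resistant versus vehicle tumors, and 2 lower and 4 higher in resistant versus sensitive tumors. Of all genes, 12.6%, 32.5% and 11.6% were lower and 3.16%, 11.5% and 9.56% higher in these comparisons. The 4 higher in resistant versus sensitive tumors were 1 without mouse 6-5 and 2 without mouse 6-4 or mouse 9-6, and the 2 lower were 1 without mouse 6-4 and 5 without mouse 1-5. The 1 called higher was USP36, a deubiquitinase of MYC, in sensitive versus vehicle tumors, and 0 were called without mouse 1-9, 6-4, 6-5 or 6-6. In resistant versus vehicle tumors it was STUB1, a chaperone-bound ubiquitin ligase, and 0 were called without mouse 1-4, 1-5, 1-9, 6-6, 9-3, 9-6, 9-7 or 9-9. The medians of the 3 comparisons were -0.02, -0.15 and -0.09 in that order. AURKA, CIP2A and SKP2 are also cell cycle genes. AURKA and CIP2A had the order of groups described for MXD3, whereas SKP2 was lowest in resistant tumors and was not called in sensitive versus vehicle tumors (adjusted p = 0.140).

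Of the genes known to be raised by MYC, 0 were called higher by limma in any of the 3 comparisons in the main fit. Of 40 listed, 39 were found and 38 tested. In sensitive versus vehicle tumors, where MYC itself was called higher, 3 of 38 were called lower and the median was 0.05. That MYC call ended without mouse 6-5 or 6-6, as given above. At an unadjusted p under 0.05, 1 of the 38 was higher and 7 lower. When a mouse was left out 0 or 1 were called higher, and 0 to 3 over the other alternatives. NOLC1, a nucleolar protein, was called higher in this comparison under both other scalings (0.27 and 0.28, adjusted p = 0.0363 and 0.0176), where 1 was called lower. Without mouse 1-2, 6-5 or 6-6 there was 1 lower, and without mouse 1-5 there were 5. In resistant versus sensitive tumors 8 were called lower (median -0.10), and between 2 and 5 were lower without mouse 6-4, 6-5, 6-6, 9-6 or 9-7. In resistant versus vehicle tumors 15 were called lower (median -0.03), but 4 with median-of-ratios scaling and 8 with quantile normalization. At an unadjusted p under 0.05, 0 were higher in either of these comparisons, and 13 and 19 were lower. The 15 of 38 stand beside 32.5% of all genes called lower, the 4 beside 17.3% and the 8 beside 19.7%. In sensitive versus vehicle and resistant versus sensitive tumors 12.6% and 11.6% of all genes were called lower. The shares called higher were 3.16% in sensitive versus vehicle, 9.56% in resistant versus sensitive and 11.5% in resistant versus vehicle tumors.

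HSPD1, a mitochondrial chaperonin, averaged 337 ± 24.8 TPM in resistant, 497 ± 27.9 TPM in sensitive and 549 ± 11.9 TPM in vehicle tumors. It was lower in resistant versus sensitive (-0.52, adjusted p = 1.98e-04) and resistant versus vehicle tumors (-0.57, adjusted p = 1.29e-06). PTMA, prothymosin alpha, averaged 1359 ± 40.6 TPM in resistant, 1408 ± 63.5 TPM in sensitive and 2044 ± 175 TPM in vehicle tumors and was lower in both treated groups versus vehicle (-0.45, adjusted p = 1.41e-05, resistant; -0.46, adjusted p = 1.78e-04, sensitive). HSPD1 and PTMA have pseudogene copies, so their levels carry the same uncertainty as that of RPL3. NCL, nucleolin, averaged 465 ± 24.1 TPM in resistant, 529 ± 12.7 TPM in sensitive and 538 ± 37.1 TPM in vehicle tumors. ODC1, ornithine decarboxylase, was at 7.19 ± 2.00, 7.49 ± 2.03 and 6.35 ± 2.28 TPM in resistant, sensitive and vehicle tumors and was not called. CCND2 was listed at 0 in every mouse.

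Of 9 genes known to be repressed by MYC, 1 was called lower in sensitive versus vehicle tumors (median -0.21), 3 in resistant versus sensitive (median -0.05) and 4 in resistant versus vehicle tumors (median -0.27), and 0 were called higher by limma (0, 1 and 0 at an unadjusted p under 0.05). The shares of all genes called lower were 12.6%, 11.6% and 32.5% in the same order, and those called higher 3.16%, 9.56% and 11.5%. The 1 lower in sensitive versus vehicle tumors was 3 without mouse 1-5. GADD45A, a growth arrest gene, was called higher in resistant versus sensitive tumors under both other scalings (0.70 and 0.73, adjusted p = 0.0400 and 0.0331) and in resistant versus vehicle tumors with quantile normalization (0.54, adjusted p = 0.0416). CEBPA, a differentiation factor, averaged 24.3 ± 3.09 TPM in resistant, 57.5 ± 4.50 TPM in sensitive and 63.2 ± 11.2 TPM in vehicle tumors and was lower in resistant versus sensitive (-1.17, adjusted p = 1.58e-04) and resistant versus vehicle tumors (-1.20, adjusted p = 2.83e-06). NDRG1, which hypoxia also raises, averaged 14.8 ± 6.32 TPM in resistant, 68.3 ± 36.8 TPM in sensitive and 33.5 ± 16.4 TPM in vehicle tumors. It was lower in resistant versus sensitive tumors (-2.01, adjusted p = 0.00560). CDKN1B, the CDK inhibitor p27, averaged 62.8 ± 10.9 TPM in resistant, 66.9 ± 7.32 TPM in sensitive and 91.1 ± 9.20 TPM in vehicle tumors. It was lower in resistant versus vehicle tumors (-0.41, adjusted p = 0.00185) and in sensitive versus vehicle tumors (-0.37, adjusted p = 0.0336), where the call ended without mouse 1-2, 1-9, 6-5 or 6-6 (adjusted p up to 0.177) and under both other scalings.

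**Figure D5:**
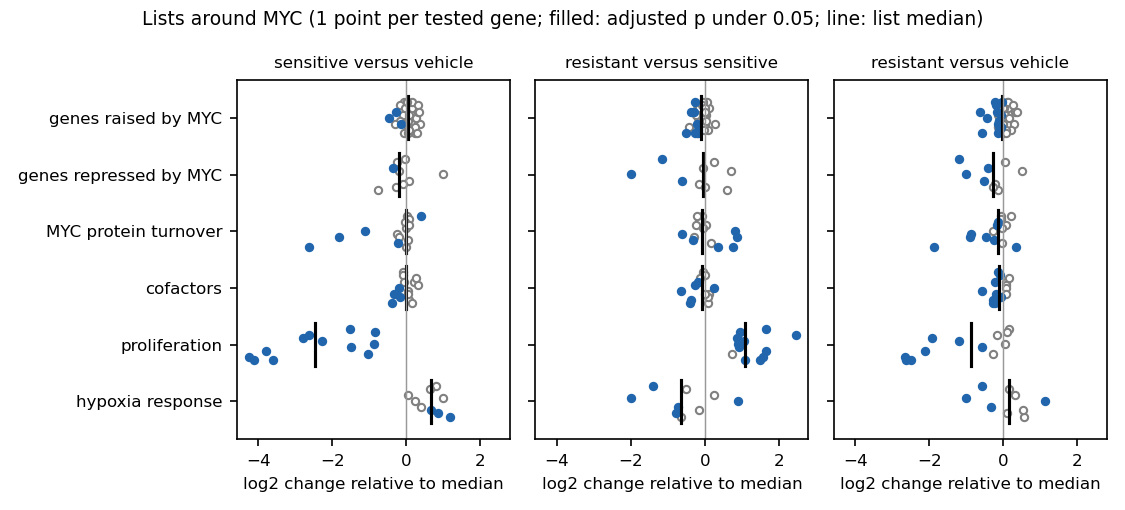
Log2 change relative to the median of all genes for the tested genes of 6 lists around MYC (points; filled points passed an adjusted p of 0.05) with each list's median (black line) in the 3 comparisons. The genes raised by MYC have medians of 0.05, -0.10 and -0.03 in sensitive versus vehicle, resistant versus sensitive and resistant versus vehicle tumors, while the proliferation genes have -2.46, 1.08 and -0.88.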

How the data were processed

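RNA sequencing values of 26 libraries from 13 ZR751 xenograft-bearing mice were used as deposited. The deposited table holds TPM, the unit the authors made; the builds GRCh38 and GRCm38 and the tools STAR, RSEM, HTSeq and FastQC are listed in the submitters' processing notes, without versions. No source used here states how mouse reads were set aside or whether A and B are separate preparations. TPM keeps no depth, so no counting interval is given. Tumors were powdered before RNA extraction, per the labels' protocols.

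An unnamed entry (0.000149 to 0.000551% of a library) was left out. Log2(TPM + 1) was averaged over the A and B libraries of a mouse, genes with a mean of at least 1 TPM in at least 3 mice were kept, and 1 limma model with trend covered all 13 mice (limma 3.58.1, R 4.3.3; Benjamini-Hochberg over 14079 genes, two-sided). The change of all genes had medians of -0.07 to -0.14 under TPM scaling for the comparisons with vehicle and near 0 under median-of-ratios scaling, so changes are given relative to the median. The model was tested on simulated data. The members and lists were chosen with earlier results of these data known, so that no count over them is independent support. All members are named, from each other list at most 6 called genes per comparison by adjusted p, and for MYC, MXD1 and MXD3 the 4 genes of closest profile; which of the list genes are described, and NCL, NOLC1, GADD45A, ODC1, CCND2, PTPRC, CD68 and LYZ, were chosen after their values were seen. CIP2A and MYCL were matched by older symbols. Alternatives were 2 pseudocounts, 2 filters, 2 scalings, 2 variance models, the compared groups alone, A or B libraries alone, 26-library fits and leaving out each mouse. Positions are from GENCODE 29 (GRCh38) and promoter windows from RefSeq (GRCh38.p14).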

Additional observations from a re-analysis of the deposited data

Results flagged for a closer look

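In vehicle tumors, mouse 1-5 had 16.65 TPM of MXD3, the lowest of the 5, and the nearest other mouse had 24.47 TPM; this gap was 0.723 of the group's range, above the limit of 0.71 for 5 samples. The same mouse had the highest ratio of MXD1 to MXD3 in vehicle tumors, 0.538, with the next at 0.261, a gap of 0.783 of the range. It also had the lowest MYC (123 TPM) and MKI67 (36.2 TPM) and the highest MXD1 (8.96 TPM) of the vehicle mice, and the other 4 had at least 42.1 TPM of MKI67. Of 24 groups of values examined 2 stood apart in this way, and chance gives about 1 in 20; both involve the 1 MXD3 value, and the ratio also that mouse's MXD1. Without mouse 1-5 the calls of MYC, MXD1 and MXD3 in the 3 comparisons were the same.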

How the results depend on the processing

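MXD1 and MXD3 kept their 5 calls in all 26 alternatives, with adjusted p from 2.55e-06 to 0.0126 for MXD1 in resistant versus sensitive tumors and from 2.98e-05 to 0.00754 for MXD3. The number of members called, 2, 2 and 4 in sensitive versus vehicle, resistant versus sensitive and resistant versus vehicle tumors, was 1 to 2, 2 to 3 and 4 to 6 when a mouse was left out. It was 4 in resistant versus sensitive tumors with array weights per mouse and 2 in resistant versus vehicle tumors with quantile normalization, which ended the calls of MAX and MLX. The cause was not tested. With the letter A or B as a replicate block in the fit of 26 libraries the counts were 2, 3 and 5; MYC was called in resistant versus vehicle tumors (adjusted p = 0.0143), and MLXIP was not in resistant versus sensitive tumors (0.0572). Same-lettered libraries of different groups did not deviate together (correlations of -0.224 to 0.235, median 0.00522), so the letters pair no samples across groups, while each of the 26 libraries lay nearest to its partner from the same mouse. The sign turned for 3 changes that were not called: MAX in sensitive versus vehicle tumors with a filter at 5 TPM (0.000176), in A libraries alone (0.0222) and when a mouse was left out (-0.0641 to 0.0164), MLX in resistant versus sensitive tumors when a mouse was left out (-0.100 to 0.00688), and MXI1 in resistant versus vehicle tumors when a mouse was left out (-0.138 to 0.00645). Among called genes, the higher ones were 20.1% in sensitive versus vehicle, 45.2% in resistant versus sensitive and 26.2% in resistant versus vehicle tumors, against 42.1%, 56.3% and 51.2% when scaled by median of ratios, and 48.6%, 44.8% and 45.8% after quantile normalization. TPM gives no depth, so precision at the level of MYCN is unknown.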
